A study of Mus musculus with 5 samples.

Results

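Killer lymphocytes carry a small set of effector genes, and 10 of them were followed here through the lymphocytes of the injured mouse kidney. They were Gzma, Gzmb and Gzmk (granzymes), Prf1 (perforin), Nkg7, Ifng (interferon gamma), Fasl (Fas ligand), Klrk1 (the receptor NKG2D), Pdcd1 (PD-1) and Lag3. They were taken by gene symbol from the 32285 genes of the count matrix, and all 10 symbols were found, each on a single row. The kidneys came from sham-operated mice and from mice with unilateral ischemia-reperfusion (UIR), a model of acute kidney injury (AKI), at day 1, 3, 14 and 28. Per the study's methods the mice were male C57BL/6J animals of 6 to 8 weeks, the left renal pedicle was clamped for 35 minutes with the right kidney left intact, and tissue of 3 mice made up each kidney sample. GEO's sample records call the cell type "Goblet cell", while the tissue is kidney. Of the 57540 cells kept here, 47238 had at least 10 unique molecular identifiers (UMIs) of proximal tubule genes and none of the T, natural killer or B cell markers used below.

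The matrix pools 5 libraries of 10x Genomics 3' single-cell RNA-seq, told apart only by a number at the end of each cell barcode. The labels do not say which number is sham and which is a day after UIR. For this reason no condition was compared with another: the cells count as a single pooled sample, and values by library number only describe it. Levels are given as CPM, the UMIs of a gene in a group of cells scaled to 1000000 UMIs of that group. Ranges in brackets are exact 95% intervals, which cover counting error only and not the spread between mice.

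Cytotoxic lymphocytes kill by releasing granules that hold perforin, which opens the membrane of the target, and granzymes, the proteases that enter through it. Fas ligand on the cell surface triggers death through Fas on the target, and interferon gamma acts on tissue cells and macrophages at a distance. NKG2D recognises stress ligands on injured cells, whereas PD-1 and LAG-3 restrain activated T cells. Natural killer (NK) cells are known to hold granzyme and perforin transcripts at rest, and CD8 T cells to build them up after activation.

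Cells were gated on marker UMIs, and no member was used in a gate. A T cell had at least 2 UMIs of Cd3d, Cd3e and Cd3g together and none of a set of B genes that included Cd79a, Cd79b and Ms4a1. The CD8 T gate asked for a UMI of Cd8a or Cd8b1 and none of Cd4, and the CD4 T gate for the reverse. The NK gate asked for 2 UMIs of Ncr1, Klrb1c, Klre1, Klra8 and Klra4 with no T or B marker, and the B gate for 2 of the B genes with no T or NK marker. This gave 382 CD8 T, 170 CD4 T, 194 NK and 440 B cells, with a median of 2013, 1991, 1637 and 1391.5 UMIs per cell. Another 642 T cells (median 1628.5 UMIs) had no UMI of Cd4, Cd8a or Cd8b1 and were kept apart. In libraries 1 to 5 the CD8 T gate held 141, 146, 63, 26 and 6 cells, the CD4 T gate 61, 73, 24, 12 and 0, the NK gate 25, 27, 92, 43 and 7, and the B gate 96, 64, 240, 28 and 12.

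Genes not used in the gates were read as a check of their names. Trac, the T cell receptor alpha chain, had a UMI in 66.0% of CD8 T, 70.0% of CD4 T and 3.61% of NK cells. The signalling adaptor Tyrobp was found in 96.4% of NK cells against 2.62% of CD8 T cells, and Igkc, an antibody light chain, in 93.2% of B cells. Innate lymphoid type 1 cells share markers with NK cells. Of their genes, Cxcr6 had a UMI in 0.515% of the NK gate and Il7r in 7.22%. Itga1 and Tmem176b, also on the list for these cells, are not given here, so the NK gate may hold such cells. Tubule genes made up 0.339% to 0.602% of the UMIs of the 4 gates. Unlike the genes above, they were part of the gates, which limited them to 2% of a cell's UMIs. Their low share was therefore bounded by the gates and is no check of them. The 57540 cells had a median of 4620 UMIs, and their libraries held 82426945 to 139382799 UMIs over all barcodes. Of the 1186 gated cells, 16 had a barcode that was also a cell of another library, and no barcode was shared between gated cells.

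For all members but Lag3, the level in the highest gate lay well above that of proximal tubule cells and of barcodes under 100 UMIs. The part of free RNA in each gate was not estimated. Proximal tubule cells, which should lack these genes, were gated without any UMI of a T, NK or B marker. That rule leaves out tubule barcodes with such UMIs, so it can lower the member levels read in this gate. The gated tubule cells were deeper (median 5198 UMIs), yet 0.0106% to 0.220% of them had a UMI of each member. Their levels ran from 0.0176 CPM for Gzmk to 0.425 CPM for Nkg7, and barcodes under 100 UMIs ran from 0.605 CPM for Fasl to 9.31 CPM for Nkg7. The lowest gate levels, such as Gzma in CD4 T and B cells, Prf1 in CD4 T cells and Pdcd1 in NK cells, lay inside the range of those barcodes. That range spans the members, and these low levels were not set against each gene's own level in those barcodes. Such levels are not told apart from free RNA here. For the shares by gate, values with cells thinned to 1000 UMIs are also given. Thinning kept 373 CD8 T, 160 CD4 T, 180 NK and 399 B cells and left out 9, 10, 14 and 41 shallower cells, and at that depth each member had a UMI in at most 0.08% of 5000 tubule cells drawn at random.

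**Figure D1:**
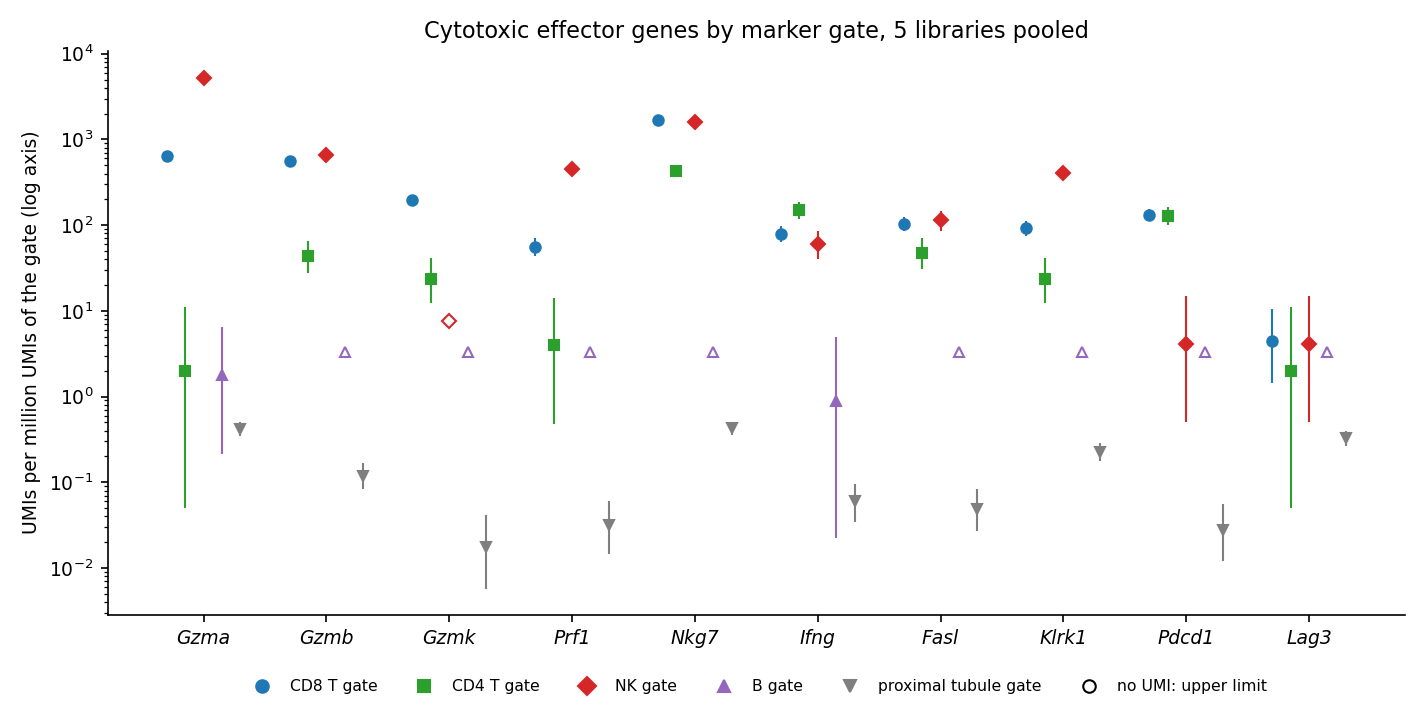
Level of the 10 members in each marker gate, in CPM on a log axis, with exact 95% counting intervals; open symbols mark gates with no UMI, drawn at the upper limit. Gzma is highest in the NK gate at 5234, Gzmk has no UMI there, and the proximal tubule gate is the lowest of the gates with a UMI for every member.

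The granzyme genes were set apart by cell type. Gzma, a tryptase-like granzyme, was highest in the NK gate and Gzmk in the CD8 T gate, and Gzmb, the granzyme that activates caspases, stood within 2-fold in both. Gzma (ENSMUSG00000023132) lies at chr13:113093825-113100981 and Gzmk (ENSMUSG00000042385) at chr13:113171608-113225908, both on the minus strand of GRCm38 in GENCODE vM21, and the annotated span of Gzmk overlaps Esm1 on the opposite strand. Gzmb (ENSMUSG00000015437) lies at chr14:56258838-56262260 on the minus strand. The 160 bases before the RefSeq start of each (GRCm38.p6, minus strand, 5′ to 3′) are shown because these are the 3 granzymes among the members. The windows are chr13:113100982-113101141, chr13:113180966-113181125 and chr14:56262335-56262494 in the order below, and capitals mark a Runx, T-box or AP-1 motif. The Gzmk window lies inside the GENCODE span of that gene, whose longest transcripts start further upstream.
Gzma: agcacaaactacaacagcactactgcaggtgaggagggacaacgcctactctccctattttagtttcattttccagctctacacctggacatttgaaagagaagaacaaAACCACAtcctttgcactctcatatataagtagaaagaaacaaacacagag
Gzmk: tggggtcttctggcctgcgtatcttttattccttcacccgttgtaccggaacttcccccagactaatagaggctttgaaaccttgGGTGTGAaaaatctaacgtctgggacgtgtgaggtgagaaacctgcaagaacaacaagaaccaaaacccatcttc
Gzmb: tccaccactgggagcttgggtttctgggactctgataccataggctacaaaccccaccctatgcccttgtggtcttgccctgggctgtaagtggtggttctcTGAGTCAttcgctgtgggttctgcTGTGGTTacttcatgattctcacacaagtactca

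Runx, T-box and AP-1 proteins are families of transcription factors known to act on genes of activated lymphocytes. The letters TGTGGTT (Runx), GGTGTNA (T-box), TGANTCA (AP-1) and TGACGTNA (the cyclic AMP response element, CRE) were searched on both strands of the 250 bases before the start, and 9 of the 10 members had a RefSeq promoter. Of 32851 mouse promoters, 4.4%, 8.61%, 6.75% and 2.52% held these letters. Gzma had the Runx letters on the reverse strand 51 bases before its start, Gzmb had them 34 bases before with the AP-1 letters at 58, and Klrk1 had them at 129. The T-box letters stood 75 bases before the start of Gzmk and 13 before that of Nkg7. The Nkg7 match, like the Gzmk window, lies inside the GENCODE span of its gene, which starts further upstream than RefSeq has it. The CRE letters were found in none of the 9, and Prf1, Ifng, Fasl and Pdcd1 held none of the 4 motifs. No factor was measured at these sites.

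Gzma was read in nearly every NK cell and in few CD8 T cells. The NK gate held 2532 UMIs, or 5234 CPM (5032 to 5442), and 178 of 194 cells had a UMI (91.8%, 87.0 to 95.2), against 642 CPM (596 to 690) and 12.8% (9.64 to 16.6) in the CD8 T gate. At 1000 UMIs per cell the shares were 87.2% and 9.38%. In libraries 1 to 4 the NK level was 7944, 6069, 4206 and 6287 CPM and the CD8 T level 165, 1046, 263 and 819 CPM, so these levels did not overlap. The share of all genes with levels set apart in this way was not computed, here or for Prf1 and Klrk1 below. The ratio of NK to CD8 T was 8.16-fold (log2 3.03, 2.91 to 3.15), and it ran from 5.80-fold in library 2 to 48.1-fold in library 1. CD4 T and B cells had 1 and 2 Gzma UMIs, which is 1.98 CPM (0.0501 to 11.0) and 1.78 CPM (0.216 to 6.44).

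The CD8 T level of Gzma rested on few cells. Only 49 of 382 cells had a UMI, a single cell held 181 of the 721 UMIs, and 4 cells held 50% of them. In the NK gate 43 cells were needed for 50%, and the highest cell had 68 UMIs. Without library 2 the CD8 T level was 297 CPM and the log2 ratio 4.09, and without the cell of most member UMIs in each gate the log2 ratio was 3.40.

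Gzmb was within 2-fold between NK and CD8 T cells when libraries were pooled, at a log2 ratio of 0.23, but this ratio moved with the settings, to 0.94 at 1000 UMIs per cell and to -0.26 at a marker sum of at least 1. It stood at 659 CPM (589 to 736) in NK cells, at 563 CPM (520 to 609) in CD8 T cells and at 43.6 CPM (27.3 to 66.0) in CD4 T cells, with no UMI in B cells. The share of cells with a UMI was 53.1% (45.8 to 60.3), 28.3% (23.8 to 33.1) and 7.06% (3.70 to 12), or 42.8%, 21.2% and 5.00% at 1000 UMIs. In libraries 1 to 4 the CD8 T level was 485, 768, 65.8 and 757 CPM, and the NK level 550, 1206, 504 and 727 CPM. Library 3 was the lowest in both gates, in CD8 T cells with 12 UMIs in 6 of 63 cells, and the NK to CD8 T ratio was 7.67-fold there, against 1.13-fold in library 1, 1.57-fold in library 2 and 0.961-fold in library 4. A single CD8 T cell held 98 of the 633 UMIs.

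Gzmk was a T cell transcript in these kidneys. It had 221 UMIs in 125 of 382 CD8 T cells, which is 197 CPM (172 to 224) and a share of 32.7% (28.0 to 37.7), and 12 UMIs in 10 of 170 CD4 T cells, or 23.8 CPM (12.3 to 41.5). Neither NK nor B cells had a UMI. For 194 NK cells a count of 0 allows, by a rule of 3 counts, up to 1.55% of cells with a UMI and a level of up to 6.20 CPM. This limits cells with a UMI at this depth, not cells that express the gene. By the same rule Gzmk was at least 31.7-fold lower than in CD8 T cells. At 1000 UMIs per cell, 16.9% of CD8 T and 4.38% of CD4 T cells had a UMI. In libraries 1 to 4 the CD8 T level was 320, 182, 21.9 and 228 CPM. Library 3 was again the low one, with a UMI in 3 of 63 cells against 54 of 141, 54 of 146 and 12 of 26. Its counts were spread thinly, since the highest cell had 6 UMIs and 37 cells held 50% of the total.

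Prf1 (ENSMUSG00000037202, chr10:61297833-61304680, plus strand) was higher in NK than in CD8 T cells, as Gzma was. NK cells had 453 CPM (395 to 517) with a UMI in 58.2% of cells (51.0 to 65.3), and CD8 T cells 56.1 CPM (43.1 to 71.7) in 14.7% (11.3 to 18.6). At 1000 UMIs the shares were 39.4% and 6.70%. The NK level was 924, 510, 285 and 688 CPM in libraries 1 to 4 and the CD8 T level 64.7, 54.1, 38.4 and 51.8 CPM, again with no overlap. The ratio was 8.07-fold (log2 3.01, 2.60 to 3.44), and by library it was 14.3, 9.42, 7.43 and 13.3-fold. CD4 T cells had 2 UMIs and B cells none.

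Nkg7 (ENSMUSG00000004612, chr7:43437073-43438249, plus strand), which codes for a granule membrane protein needed for release, was read in most killer cells and in no B cell. It had a UMI in 91.4% of CD8 T cells (88.1 to 94.0), 90.7% of NK cells (85.7 to 94.4), 41.8% of CD4 T cells (34.3 to 49.6) and none of the 440 B cells, where a count of 0 allows, by the rule of 3 counts, up to 0.682% of cells with a UMI. At 1000 UMIs the shares were 77.5%, 81.1% and 33.1%. The pooled levels were 1666 CPM in CD8 T, 1600 CPM in NK and 430 CPM in CD4 T cells. The pooled log2 ratio of NK to CD8 T was -0.06 (-0.18 to 0.06), yet NK cells were higher in each of the 4 libraries with 20 cells in both gates, by 1.27, 1.27, 1.04 and 1.22-fold. Library 3, which held 92 of the 194 NK cells but 63 of the 382 CD8 T cells, was low in both gates at 1005 and 964 CPM, against 1928 to 2773 CPM in the NK and 1518 to 2190 CPM in the CD8 T cells of libraries 1, 2 and 4. The pooled sign turned without library 1 (log2 0.03) or library 3 (0.40), with libraries weighted equally (0.29), as a mean of cells (0.15), at 1000 UMIs per cell (0.22) and at most 10% mitochondrial UMIs (0.25), so no order of NK and CD8 T cells was drawn for Nkg7.

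Ifng (ENSMUSG00000055170, chr10:118441046-118445892, plus strand) had its highest pooled level in the CD4 T gate. Its level was 149 CPM (117 to 186) there, 79.2 CPM (63.6 to 97.5) in CD8 T cells, 59.9 CPM (40.1 to 86.1) in NK cells and 0.892 CPM from 1 UMI in B cells. The share of cells with a UMI was 22.4%, 14.7% and 10.8% in the first 3, and 11.2%, 7.24% and 6.11% at 1000 UMIs, where the intervals overlapped. CD4 T cells had 253, 138 and 44.2 CPM in libraries 1 to 3 and CD8 T cells 120, 83.1 and 21.9 CPM, so CD4 T cells were higher in 3 of 3. The CD8 T level was 1.88-fold lower (log2 -0.91, -1.37 to -0.44), close to the 2-fold line. The log2 ratio was past it without library 2 (-1.06), without the cells of highest score by Scrublet, a doublet caller (-1.05) and with libraries weighted equally (-1.12), and inside it at 1000 UMIs per cell (-0.65). A single CD4 T cell held 13 of the 75 UMIs, and without the cell of most member UMIs in each gate the log2 ratio was -0.65. The pooled log2 ratio of NK to CD8 T cells was -0.40, with an interval of -1.06 to 0.22, but the libraries went opposite ways. In library 3 NK cells were 3.17-fold higher (log2 1.66, 0.07 to 3.68), while library 2 had no Ifng UMI in NK cells against 43 in CD8 T cells.

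Fasl (ENSMUSG00000000817, chr1:161780689-161788495, minus strand) was within 2-fold between the killer cells. NK cells had 114 CPM (85.6 to 148) and CD8 T cells 102 CPM (84.5 to 123), with a UMI in 23.7% and 23.6% of cells, or 15.6% and 12.3% at 1000 UMIs. CD4 T cells had 47.5 CPM (30.5 to 70.7) in 13.5% of cells (8.75% at 1000 UMIs), and B cells had no UMI. In libraries 1 to 4 the NK level was 200, 124, 95 and 143 CPM and the CD8 T level 110, 124, 49.3 and 82.9 CPM, and the pooled log2 ratio of 0.15 had an interval of -0.34 to 0.63. Within libraries 1 to 4 the NK to CD8 T ratio was 1.82, 1.00, 1.93 and 1.72-fold, with an interval of the log2 ratio that included 0 in each, and with libraries weighted equally the log2 ratio was 0.62. The 2.15-fold excess of CD8 T over CD4 T cells (log2 1.11, 0.46 to 1.81) was under 2-fold without library 2 (log2 0.78), with libraries weighted equally (0.82), as a mean of cells (0.92) and at 1000 UMIs per cell (0.64), and it lay at the line without the cells of highest Scrublet score (1.00).

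Klrk1 (ENSMUSG00000030149, chr6:129610323-129623864, minus strand) was highest in NK cells. It had 407 CPM (352 to 468) in NK, 91.7 CPM (74.8 to 111) in CD8 T and 23.8 CPM (12.3 to 41.5) in CD4 T cells, and no UMI in B cells. A UMI was found in 62.4%, 14.9% and 4.12% of cells, and in 42.8%, 9.38% and 3.12% at 1000 UMIs. The NK level was 724, 423, 322 and 494 CPM in libraries 1 to 4 and the CD8 T level 165, 54.1, 110 and 31.1 CPM, with no overlap. The ratio was 4.44-fold (log2 2.15, 1.80 to 2.51). Of the CD8 T cells, 18 had a UMI of an NK marker, and 11 of these had a Klrk1 UMI (61.1%, 35.7 to 82.7) against 46 of the other 364 (12.6%, 9.40 to 16.5), with median depths of 3238 and 1998.5 UMIs and no thinning. This split, like every split by a further gene below, was made after the values were seen.

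Pdcd1 (ENSMUSG00000026285, chr1:94038305-94052553, minus strand) was shared by both kinds of T cell. CD8 T cells had 131 CPM (111 to 154) and CD4 T cells 129 CPM (99.4 to 164), with a UMI in 20.7% and 18.2% of cells, or 12.3% and 12.5% at 1000 UMIs. The log2 ratio was 0.02 (-0.41 to 0.47). NK cells had 2 UMIs in 1 cell, a level of 4.13 CPM (0.501 to 14.9), which put the log2 ratio of NK to CD8 T at -4.98 (-8.04 to -3.11). In libraries 1 to 4 the CD8 T level was 188, 126, 16.4 and 135 CPM, and in libraries 1 to 3 the CD4 T level was 238, 125 and 22.1 CPM. Library 3 was low in both, with 3 UMIs in CD8 T and 2 in CD4 T cells.

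Lag3 (ENSMUSG00000030124, chr6:124904361-124911705, minus strand) was close to the limit of detection. It had 5 UMIs in 5 CD8 T cells (1.31%, 0.426 to 3.03), 1 in CD4 T cells, 2 in a single NK cell and none in B cells. In proximal tubule cells it had 93 UMIs in 92 of 47238 cells (0.195%, 0.157 to 0.239), which was 56.7% of all Lag3 UMIs in the cells kept and a level of 0.326 CPM, below the 0.838 CPM of barcodes under 100 UMIs. At 1000 UMIs the shares were 0.804% in CD8 T and 0.04% in tubule cells. The CD8 T share lay above the tubule share and its interval, and the CD4 T and NK intervals included it. Lag3 entered no count between gates, for which a gene needed 20 UMIs in both gates together.

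Counted over the 9 measured members, 3 were at least 2-fold higher in NK than in CD8 T cells (Gzma, Prf1 and Klrk1) and 2 at least 2-fold lower (Gzmk and Pdcd1). Of 7211 genes measured the same way, 10.6% were higher and 8.56% lower by 2-fold. Gzmk and Pdcd1 had 0 and 2 UMIs in NK cells and reached the minimum of 20 UMIs through the CD8 T gate. CD8 T exceeded CD4 T cells by 2-fold in 7 of 9 members (Gzma, Gzmb, Gzmk, Prf1, Nkg7, Fasl and Klrk1) and fell below in none (Ifng did under the settings named above), while 4.45% of 7171 genes were higher and 5.17% lower. Gzma, Gzmk, Prf1 and Klrk1 had 1, 12, 2 and 12 UMIs in CD4 T cells and reached the minimum through the CD8 T gate, so the counts are a description of the members and support nothing further. The Gzma ratio, at log2 8.34, had an interval of 5.86 to 13.65 because CD4 T cells had 1 UMI, and it was 6.30 without library 2 and at least 6.63 without library 3. Prf1 had log2 3.82 (1.91 to 6.90) from 2 UMIs in CD4 T cells, with 2.94 without library 2 and 4.62 without library 3.

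B cells served as the lymphocytes without a killing program. The 440 B cells held 3 member UMIs in all, 2 of Gzma and 1 of Ifng. Nkg7 was at least 623-fold higher in CD8 T cells and at least 598-fold higher in NK cells than the level of 3 UMIs in the B gate, and Prf1 was at least 169-fold higher in NK cells. Of the members with 20 UMIs in both gates together, CD8 T cells exceeded B cells by 2-fold in 9 of 9 and NK cells in 7 of 7, beside 9.02% of 8717 and 6.26% of 7742 genes. A member without B cell UMIs could pass that minimum only through the other gate, so these counts were fixed by it and nothing is read from them.

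**Figure D2:**
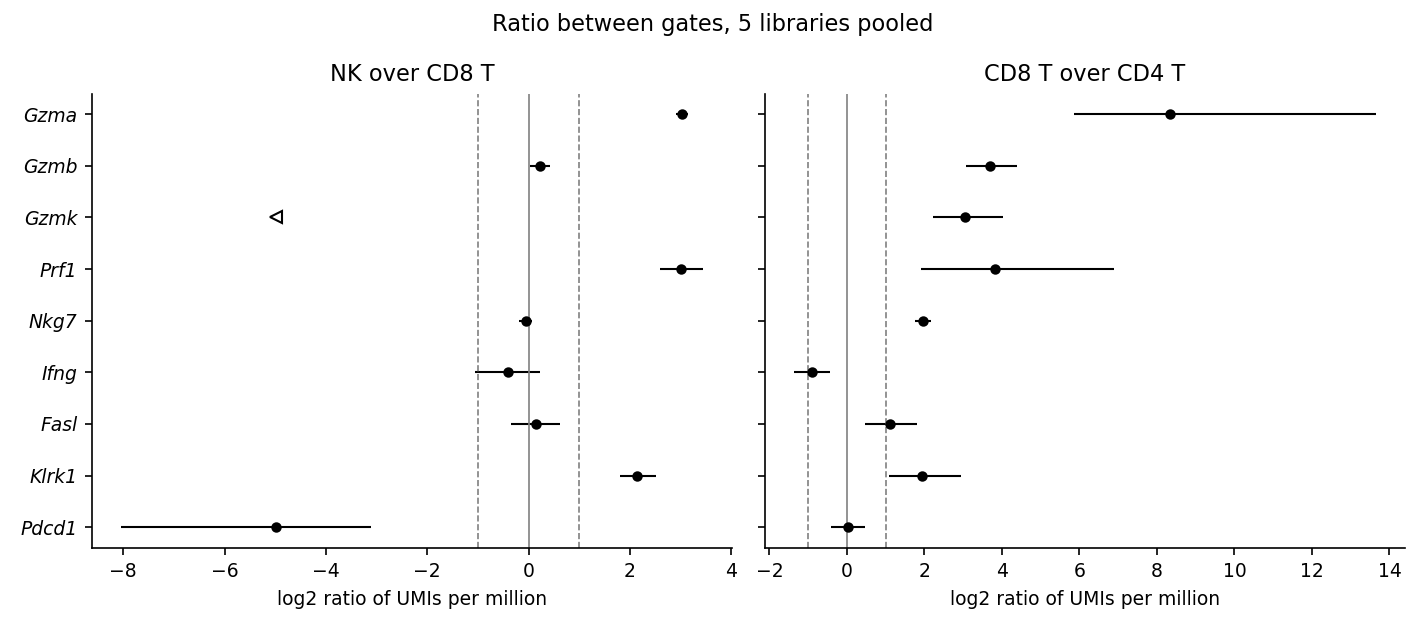
Log2 ratio of CPM for the 9 measured members, NK over CD8 T gate on the left and CD8 T over CD4 T gate on the right, with exact 95% intervals of the counts; the triangle is a bound where NK cells had no UMI, and dashed lines mark 2-fold. Gzma, Prf1 and Klrk1 lie to the right on the left panel, Gzmk and Pdcd1 near -5, and Ifng alone has its whole interval below 0 on the right panel.

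Within a cell, NK cells read out several members at a time. At 1000 UMIs an NK cell held a mean of 3.16 of the 10 members, a CD8 T cell 1.74, a CD4 T cell 0.794 and a B cell 0.00501. At least 3 members were seen in 123 of 180 NK cells (68.3%), 90 of 373 CD8 T cells (24.1%) and 6 of 160 CD4 T cells (3.75%), and no member in 3.89%, 15.5% and 45.6%. Among NK cells, those with a Gzmb UMI more often had a Prf1 UMI, 41 of 77 (53.2%, 41.5 to 64.7) against 30 of 103 (29.1%, 20.6 to 38.90). For Klrk1 no such difference by Gzmb was seen: 44.2% of NK cells with Gzmb and 41.7% without had a Klrk1 UMI, with overlapping intervals.

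In CD8 T cells, Gzma was found with Gzmb. Of 35 cells with a Gzma UMI at 1000 UMIs, 20 also had Gzmb (57.1%, 39.4 to 73.7), against 59 of 338 without Gzma (17.5%, 13.6 to 21.9). For Gzmk no such difference was seen and the intervals overlapped, with a UMI in 4 of the 35 Gzma cells (11.4%, 3.20 to 26.7) against 59 of 338 (17.5%), and in 13 of 79 Gzmb cells (16.5%) against 50 of 294 (17%). Gzmk cells had Pdcd1 in 15 of 63 (23.8%, 14.0 to 36.2) against 31 of 310 (10.0%, 6.90 to 13.9), and all 25 cells with Prf1 had Nkg7. In CD4 T cells, 11 of 18 Ifng cells (61.1%, 35.7 to 82.7) had Nkg7 against 42 of 142 without Ifng (29.6%, 22.2 to 37.8), and these intervals overlapped. These shares pool libraries that differ in level, and they were not computed within libraries.

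**Figure D3:**
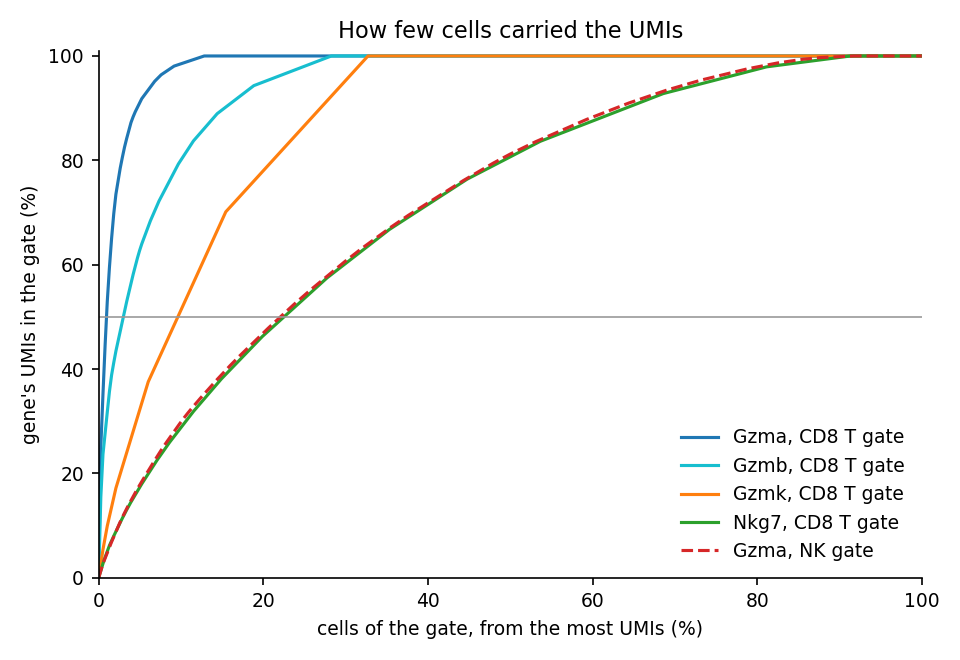
Cumulative share of a gene's UMIs in a gate (y axis, %) over its cells ordered from the most UMIs (x axis, % of cells). In the CD8 T gate 1.05% of cells carried 50% of Gzma UMIs, 3.14% those of Gzmb, 9.69% those of Gzmk and 22.5% those of Nkg7, and in the NK gate 22.2% of cells carried 50% of Gzma UMIs.

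By library, CD8 T cells of library 3 had the lowest level among libraries 1 to 4 for Gzmb, Gzmk, Prf1, Nkg7, Ifng, Fasl and Pdcd1, 7 of the 9 members with 20 UMIs there, while 30.3% of 5711 genes were lowest in that library. Gzma was lowest in library 1 and Klrk1 in library 4. The same library had the lowest NK level for Gzma, Gzmb, Prf1, Nkg7, Fasl and Klrk1, 6 of 7 members, beside 24.6% of 3209 genes. In NK cells the tubule genes took 0.785% of UMIs in library 3, against 0.332%, 0.340% and 0.335% in libraries 1, 2 and 4, and their part in these levels was not tested. The depth of library 3 lay among the others, with a median of 2242 UMIs per CD8 T cell against 1644, 2396.5 and 2590.5 in libraries 1, 2 and 4. It stood out in other ways, with 18936 cells kept against 8255 to 11311 in the other libraries. Its barcodes of ranks 45000 to 90000 by UMIs, taken as free RNA in calling, reached 489 UMIs. In libraries 1, 2, 4 and 5 they reached 121, 85, 203 and 225 UMIs. The part of these traits in the levels of library 3 was not tested. The CD8 T cells of library 3 differed in Ccr7, Lef1 and Tcf7, genes of naive and memory T cells, of which a UMI was found in 31 of 63 CD8 T cells (49.2%, 36.4 to 62.1), against 34 of 141 (24.1%), 30 of 146 (20.5%) and 3 of 26 (11.5%) in libraries 1, 2 and 4. The part of these 3 genes' cells in the levels of library 3 was not tested, and the condition behind the library number is not known.

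The CD8 T cells with and without a UMI of these 3 genes had the following levels in libraries 1, 2 and 3, where both sets held at least 20 cells. Gzma was at 162, 99.4 and 0 CPM in cells with such a UMI and at 166, 1275 and 482 CPM in cells without, and in library 1 these levels rested on 15 UMIs in 2 cells and on 36 UMIs in 9 cells. In library 2 they rested on 10 UMIs in 3 of 30 cells and on 531 UMIs in 17 of 116 cells. The shares of cells there were 10.0% (2.11 to 26.5) and 14.7% (8.78 to 22.4), with overlapping intervals. In library 3 they rested on 0 of 31 cells and on 48 UMIs in 6 of 32 cells. Gzmb was at 227, 248 and 24.1 CPM against 595, 893 and 100.4 CPM, while in library 1 the share of cells with a Gzmb UMI went the other way, 9 of 34 (26.5%) against 19 of 107 (17.8%). For Gzmb in library 1, level and share of cells therefore gave opposite orders. Nkg7 was at 1579, 1123 and 652 CPM against 2451, 1613 and 1224 CPM. Fasl was at 64.9, 119 and 36.2 CPM against 129, 125 and 60.2 CPM. Ifng was at 64.9, 59.6 and 0 CPM against 143, 88.8 and 40.1 CPM, with at most 6 UMIs per library in the cells with such a UMI. Prf1, Klrk1, Gzmk and Pdcd1 had no single direction over the libraries. Gzmk was at 216, 209 and 12.1 CPM against 365, 175 and 30.1 CPM. Pdcd1 was at 86.5, 89.4 and 24.1 CPM against 231, 134 and 10.0 CPM. In library 3 the levels of Gzmk and Pdcd1 rested on 3 or fewer UMIs each. Prf1 was at 64.9, 89.4 and 24.1 CPM against 64.6, 45.6 and 50.2 CPM. Klrk1 was at 184, 89.4 and 12.1 CPM against 157, 45.6 and 191 CPM, the 12.1 CPM being 1 UMI.

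Among the CD8 T cells without such a UMI, Gzmk was found in 43 of 107 cells (40.2%, 30.8 to 50.1), 41 of 116 (35.3%, 26.7 to 44.8), 2 of 32 (6.25%, 0.766 to 20.8) and 12 of 23 (52.2%, 30.6 to 73.2) in libraries 1 to 4. In the same cells and order, Pdcd1 was found in 29, 27, 1 and 7. Gzmb stood at 595, 893, 100.4 and 789 CPM, Nkg7 at 2451, 1613, 1224 and 2297 CPM, Ifng at 143, 88.8, 40.1 and 45.7 CPM, and Fasl at 129, 125, 60.2 and 91.4 CPM. The Ifng levels of libraries 3 and 4 rested on 4 UMIs each. Not every member was at its lowest in library 3. Prf1 stood at 64.6, 45.6, 50.2 and 57.1 CPM, Gzma at 166, 1275, 482 and 903 CPM, and Klrk1 at 157, 45.6, 191 and 34.3 CPM, the last on 3 UMIs.

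**Figure D4:**
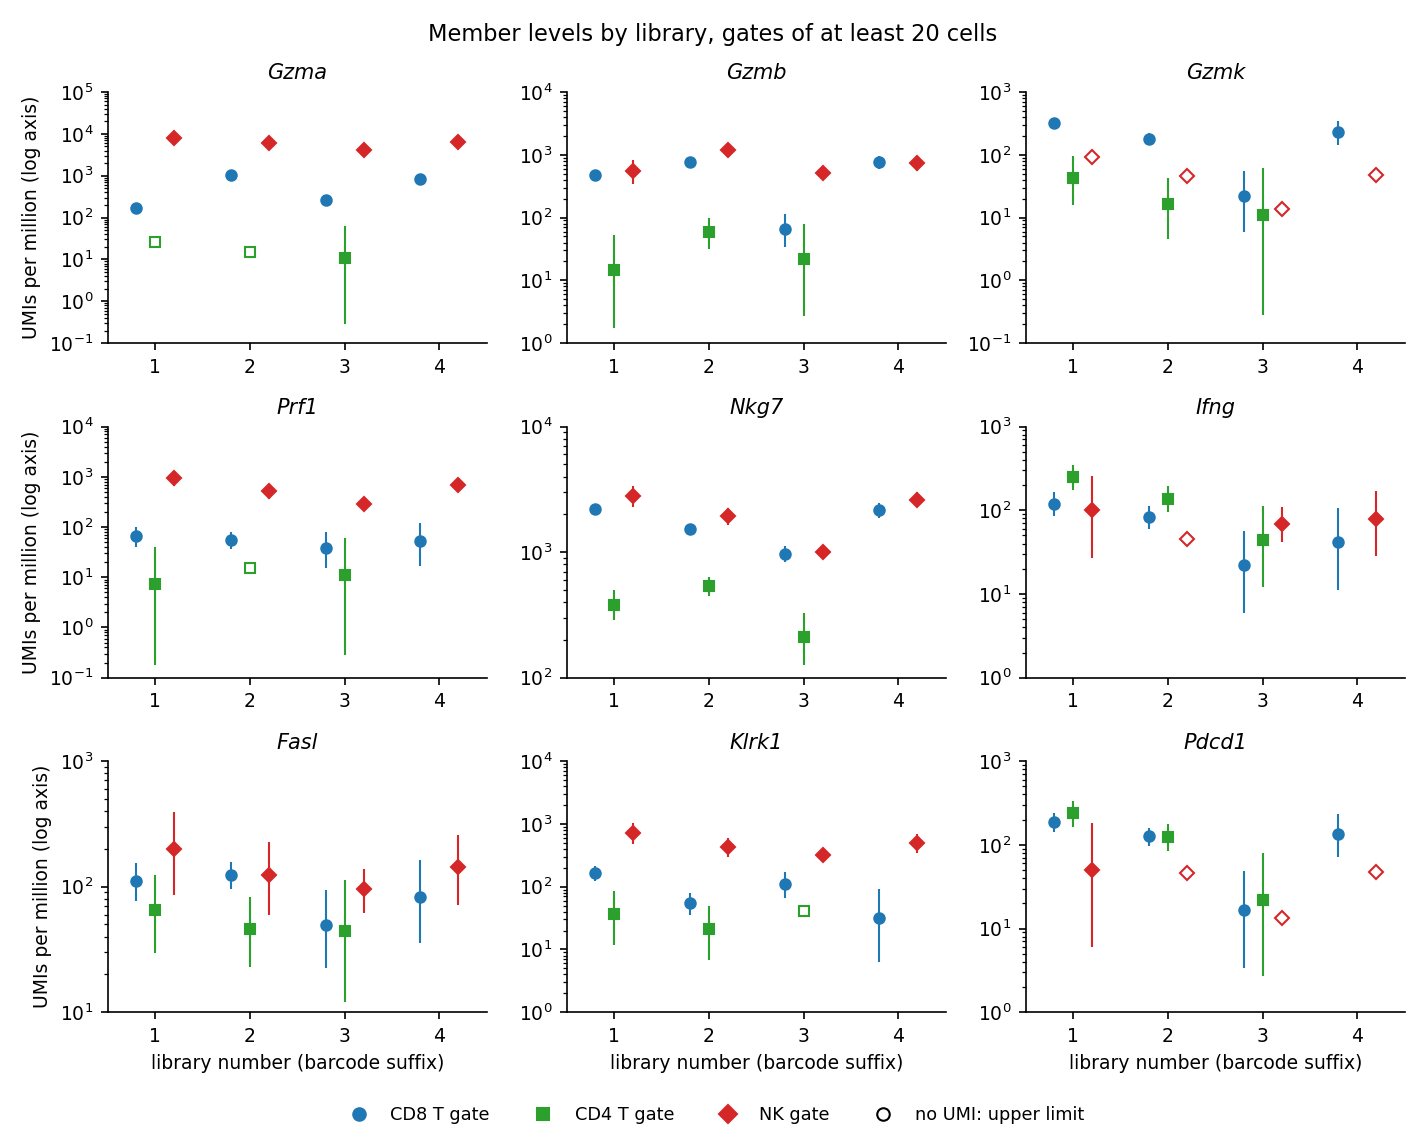
CPM of 9 members in the CD8 T, CD4 T and NK gates by library number, on log axes, for gates of at least 20 cells, with exact 95% counting intervals; open symbols mark no UMI and stand at the upper limit. NK cells lie above CD8 T cells in all 4 libraries for Gzma, Prf1 and Klrk1, and the CD8 T cells of library 3 are low for Gzmb, Gzmk and Pdcd1.

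T cells without a Cd4 or Cd8 UMI held Nkg7 at a level between those of the CD8 T and CD4 T gates. The 642 cells had 625 CPM of Nkg7 (584 to 669), 127 CPM of Ifng (108 to 147), 114 CPM of Klrk1 (96.8 to 133) and 100.1 CPM of Pdcd1 (84.0 to 118). Gzma reached 61.1 CPM, but 64 of its 83 UMIs came from a single cell, as did 59 of the 169 UMIs of Gzmb. Among them, 36 cells had a UMI of Trdc, the gamma delta receptor chain, and these had Klrk1 in 11 cells (30.6%) and Gzma in none. Another 32 had a UMI of Foxp3, the regulator of regulatory T cells, and of these 15 had Pdcd1 (46.9%, 29.1 to 65.3), 3 had Nkg7 and 1 had Ifng. In the CD4 T gate, the 9 Foxp3 cells had Pdcd1 in 5, Gzmb in 2 and no UMI of the other 8 members.

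Other genes of the killing machinery were read from fixed lists, as counts past 2-fold beside the same shares of all genes given above. Of 18 other granule genes, 10 were measured between NK and CD8 T cells, with Serpinb9 (log2 1.84) and Serpinb6b (1.15), inhibitors that guard the cell against its own granzymes, higher in NK cells and Unc13d, which primes granules for fusion, lower (-1.24). Serglycin (Srgn, log2 -0.58), the proteoglycan that packs granzymes, and cathepsin W (Ctsw, 0.02) lay inside 2-fold. The granzymes Gzmd, Gzme, Gzmg and Gzmn had no UMI in CD8 T, CD4 T or NK cells. Of 13 activating receptors and adaptors, 7 were higher in NK cells and 1 lower: Tyrobp (5.34), Fcer1g (4.47), Cd244a (2.54), Fcgr3 (2.41), Klrd1 (2.01), Klrc2 (1.92) and Klrc1 (1.14) against Cd226 (-2.38), the receptor DNAM-1. Hcst, which codes for DAP10, the adaptor that carries the NKG2D signal, stood at 526 CPM in CD8 T and 287 CPM in NK cells.

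Among the cytokines, Ccl3 (log2 2.58) and Ccl4 (1.53), chemokines released on activation, were higher in NK than in CD8 T cells, and Ccl5 stood at 8237 and 8562 CPM. Of 8 death ligands and receptors, none of the 6 measured was higher and 3 were lower in NK cells, namely Tnfsf10 (TRAIL, -2.02), Ltb (-1.82) and Fas (-1.52). Of 7 other inhibitory receptors, 3 were measured and Ctla4 was lower in NK cells (-5.16), Havcr2 (TIM-3) had 10 UMIs in CD8 T cells, and Tigit had 3. Of 11 transcription factors, Zeb2 (2.62), Eomes (2.15) and Id3 (1.18) were higher and Tcf7 (-1.19) lower in NK cells. Between CD8 T and CD4 T cells, 8 of 11 measured activating receptors and adaptors and 4 of 4 measured chemokines and cytokines were higher in CD8 T cells and none lower. These lists held 13 and 8 genes, and the rest were under the minimum of 20 UMIs. A gene low in CD4 T cells could reach that minimum through the CD8 T gate. Of 11 granule genes, 2 were higher (Ctsw, 1.45, and Ctsc, 1.14) and 1 lower (Stx11, -1.92), and of 7 death ligands and receptors none was higher and 1 lower (Lta, -1.02). Ctla4 was lower (-1.78), and Eomes (3.98) and Runx3 (1.17), which direct killer T cells, were higher with Id3 lower (-1.62). Tbx21 (T-bet) stood at 20.5 and 21.8 CPM.

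Partners of the members on proximal tubule cells were read in the 47238 gated cells, beside barcodes under 100 UMIs, which hold free RNA. Fas, the receptor of Fas ligand, was at 9.15 CPM with a UMI in 5.07% of cells, between 5.92 CPM in library 5 and 10.9 CPM in libraries 1 and 3, against 7.49 CPM in those barcodes. The interferon gamma receptor chains Ifngr1 and Ifngr2 were at 39.3 and 14.6 CPM, in 18.3% and 7.44% of cells, against 31.9 and 10.1 CPM. Of the ligands of NKG2D, Ulbp1 was at 0.484 CPM against 0.326 CPM, Raet1e at 0.186 against 0.140 CPM and Raet1d at 0.0562 against 0.0465 CPM, and H60b and H60c had 4 and 6 UMIs. Ulbp1 was at 1.22 CPM in library 3 and at 0.0392 to 0.329 CPM in the others. Cd274 (PD-L1) was at 1.12 CPM in 0.531% of cells against 2.37 CPM, Pdcd1lg2 at 0.0983 against 0.884 CPM, and Fgl1, a ligand of LAG-3, at 2.24 against 1.30 CPM. Cd274 and Pdcd1lg2 were below the level of those barcodes and are not read as expression by tubule cells. The NKG2D ligands had 7 or fewer UMIs each in those barcodes, too few to tell their level in tubule cells from it. A level near that of those barcodes does not show that a gene is absent. Protein was not measured in these files.

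Likeness was described over the 15 groups of a gate and a library with at least 20 cells, by Pearson's r of log2(CPM + 10) among 6515 genes of at least 50 UMIs that were neither members nor gate markers. The groups share libraries, and 4 cell types set most of the spread, so r describes cell types and has no test. Gzma was nearest to Eomes (0.98), Klrd1 (0.97) and Klrc2 (0.96), and Prf1 to the same 3 genes (0.95 to 0.98). Gzmb was nearest to Myo1f, Cd160 and Ccl5 (0.92 to 0.93), Nkg7 to Ctsw (0.99), Ccl5 (0.98) and Ptprc (0.97), and Fasl to Ctsw (0.99), AW112010 and Il2rb (0.97). Gzmk was nearest to Cxcr6 (0.90), a receptor of tissue-resident T cells, then Ccnb2 and Gstp3 (0.88), and Pdcd1 to Ubash3a (0.96), Gstp3 (0.91) and Izumo4 (0.90). Ifng was nearest to Tox (0.89), Pgm2l1 (0.85) and Gprin3 (0.84), and Klrk1 to Bcl2, Klrc2 (0.95) and Ccl4 (0.93). Among the members, Gzma and Prf1 had r = 0.97, Nkg7 and Fasl 0.98 and Gzmk and Pdcd1 0.83, while Gzma and Gzmk had 0.05. Lag3 had too few UMIs to be placed.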

How the data were processed

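The authors aligned the reads to mm10 (Ensembl annotation of GRCm38) and counted UMIs with Cell Ranger 6.0 per the submitters' processing notes (6.0.1 in the matrix header). They deposited raw counts of 5 merged libraries before cell calling. The methods speak of 15 matrices, while the barcodes carry 5 library numbers. No column was left unused (0).

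Cells were called per library with the 2 steps of Cell Ranger (10000 simulations, adjusted p of at most 0.01, at least 500 UMIs), then kept with at least 200 genes and at most 25% mitochondrial UMIs. This left 57540 of 70205 called barcodes. In library 3 the limit of 20000 tested barcodes was reached, so none under 661 UMIs was tested there. Gates also limited tubule genes to 2% and myeloid genes to 1% of a cell's UMIs, and these limits, the members and the gene lists were chosen with earlier results of these data known. The set of B genes in the gates holds a further gene that is not reported here. Doublets were kept. Scrublet (scanpy 1.11.5) at its own threshold marked 1 cell in all and so did not work, and an alternative left out its highest scores at 0.8% per 1000 cells.

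UMIs were summed per gate. Intervals were exact Poisson (levels), Clopper-Pearson (shares) and conditional binomial (ratios). Against 0 UMIs, folds used a floor of 3 UMIs per gate. A member or gene counted as higher or lower at 2-fold, among genes of at least 20 UMIs in both gates together. With 1 pooled sample there was no test. Genes named were the members, the fixed lists and markers, and the 3 genes most like each member. Calling and the fold rule were tested on simulated data. Alternatives covered calling, filters, gates, doublets, depth, averaging and each library.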

Additional observations from a re-analysis of the deposited data

How the results depend on the processing

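Each of the 4 counts of members past 2-fold was recomputed under 19 other settings, and each stayed within 1.5 times its value. The count for NK over CD8 T cells was 3 and that for CD8 T over B cells 9, fixed by the UMI minimum, under every setting run. The count for CD8 T over CD4 T cells lay between 6 and 8, where Fasl dropped out or Lag3 entered, and that for NK over B cells between 6 and 7. Of the recomputed log2 ratios, 599 stayed inside their counting interval or were bounds and 45 did not, of the levels 630 did and 130 did not, and no ratio past 2-fold changed sign. These tallies include settings that moved nothing. Taking every barcode of at least 500 UMIs past the filters kept the same gated cells, and a minimum of 5 UMIs per gene altered no ratio or level. Each added 34 ratios and 40 levels to those that stayed. Leaving NK marker UMIs out of the T gates, and leaving out the cell of most member UMIs in each gate, were chosen after seeing the data. No paired analysis of conditions was possible because the labels tie no library number to a condition. Gates were paired within libraries as ratios only, and no paired test over libraries was run. At 63 or fewer CD8 T cells in libraries 3, 4 and 5, differences of a few UMIs were not detectable.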
